A study of Homo sapiens with 3 samples.

Results

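Receptor tyrosine kinases are single-pass membrane proteins that bind a ligand outside the cell and carry a tyrosine kinase domain inside it. The genes described here are 39 receptor tyrosine kinases that do not belong to the Eph family, taken from 58302 genes by matching the Ensembl identifiers of the count files to receptor symbols in GENCODE. All 39 were found, each as 1 protein-coding gene. RNA was sequenced from C4-2, a human prostate adenocarcinoma line that derives from LNCaP and grows without added androgen. The 3 libraries are replicates 1, 2 and 3 of wild type C4-2 cells, so 1 group and no comparison between conditions was available. Nothing in the labels ties the replicates to separate cultures, so p-values here describe how 3 libraries differ, and that difference may be technical. The neuroendocrine lines and the depletion of neuropilin-2 that the series also describes were not analysed here.

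For many of these receptors, though not all, ligand binding brings them together as pairs and the kinase domains phosphorylate each other. Adaptor proteins then pass the signal to the RAS and MAP kinase cascade and to phosphoinositide 3-kinase. In prostate epithelium the ErbB, insulin-like growth factor and fibroblast growth factor receptors are known for supporting growth and survival, also where androgen is scarce. PDGF receptors, the VEGF receptors, CSF1R and the TIE receptors are known mainly from fibroblasts, blood vessels and myeloid cells.

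The libraries held 47513470 to 51200272 reads assigned to genes, and the median absolute log2 difference between any pair of libraries was 0.08 to 0.11 over 13717 genes with a mean of 100 or more reads. All 10 luminal prostate markers were detected, with a summed level of 4176 to 4189 TPM (reads scaled by exon length and by the total of the library). They were led by KLK3 at 1440, SPDEF at 495, SLC45A3 at 470 and FOLH1 at 425 TPM. Markers of other cells were low in sum. The 8 leukocyte and macrophage markers summed to 0.795 to 1.58 TPM, with 1 of 8 detected and AIF1, TYROBP and CD3E at 0 reads. Among them, CD14 lay at 0.572, CD68 at 0.450 and CD163 at 0.0137 TPM. The 6 endothelial markers summed to 5.91 to 6.66 TPM, with 4 of 6 detected, namely VWF at 3.68, CLDN5 at 1.92, ESAM at 0.555 and EMCN at 0.165 TPM, and with PECAM1 and CDH5 at 0.0317 and 0.0278 TPM. The 8 fibroblast and mural markers summed to 16.4 to 18.4 TPM, with 3 of 8 detected. COL1A1 made 10.2 TPM of that sum, TAGLN 5.76, PDPN 1.13 and ACTA2 0.209 TPM, and COL1A2 had 0 reads. In bulk RNA, fewer cells expressing a gene and less RNA per cell cannot be told apart.

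Of the 39 receptor genes, 28 were detected, which means at least 10 reads in every library, where 71.8% of 19708 protein-coding genes were. A mean of 1 TPM or more was reached by 20 members, against 62.7% of protein-coding genes. Only 11 of the members reached 10 TPM, a level that 42.9% of protein-coding genes reached. KDR and TEK had 0 reads in all 3 libraries, as did 13.1% of protein-coding genes. The median level of the 39 members was 0.30 ± 0.17 on the log2(TPM + 0.1) scale (SD, n = 3), and that of all protein-coding genes was 2.46 ± 0.03. With levels taken as RPKM, which scales by assigned reads, instead of TPM, 13 members stood at 1 or more, as did 54.8% of protein-coding genes.

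Expression was concentrated in few receptors. The 39 genes together summed to 526 ± 4.22 TPM, and the 5 highest, ERBB3, EGFR, DDR1, ERBB2 and IGF1R, held 71.5% of that sum. The 19 members below 1 TPM held 0.572% of it. By family, the 4 ErbB genes made 46.3% of the sum (244 ± 2.14 TPM), the 2 collagen receptors 15.7%, the insulin receptor family 14.4%, and the WNT-binding and pseudokinase receptors 10.6%. The TAM and FGF receptor families followed at 6.54% and 4.85%, and every other family lay below 1%.

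**Figure D1:**
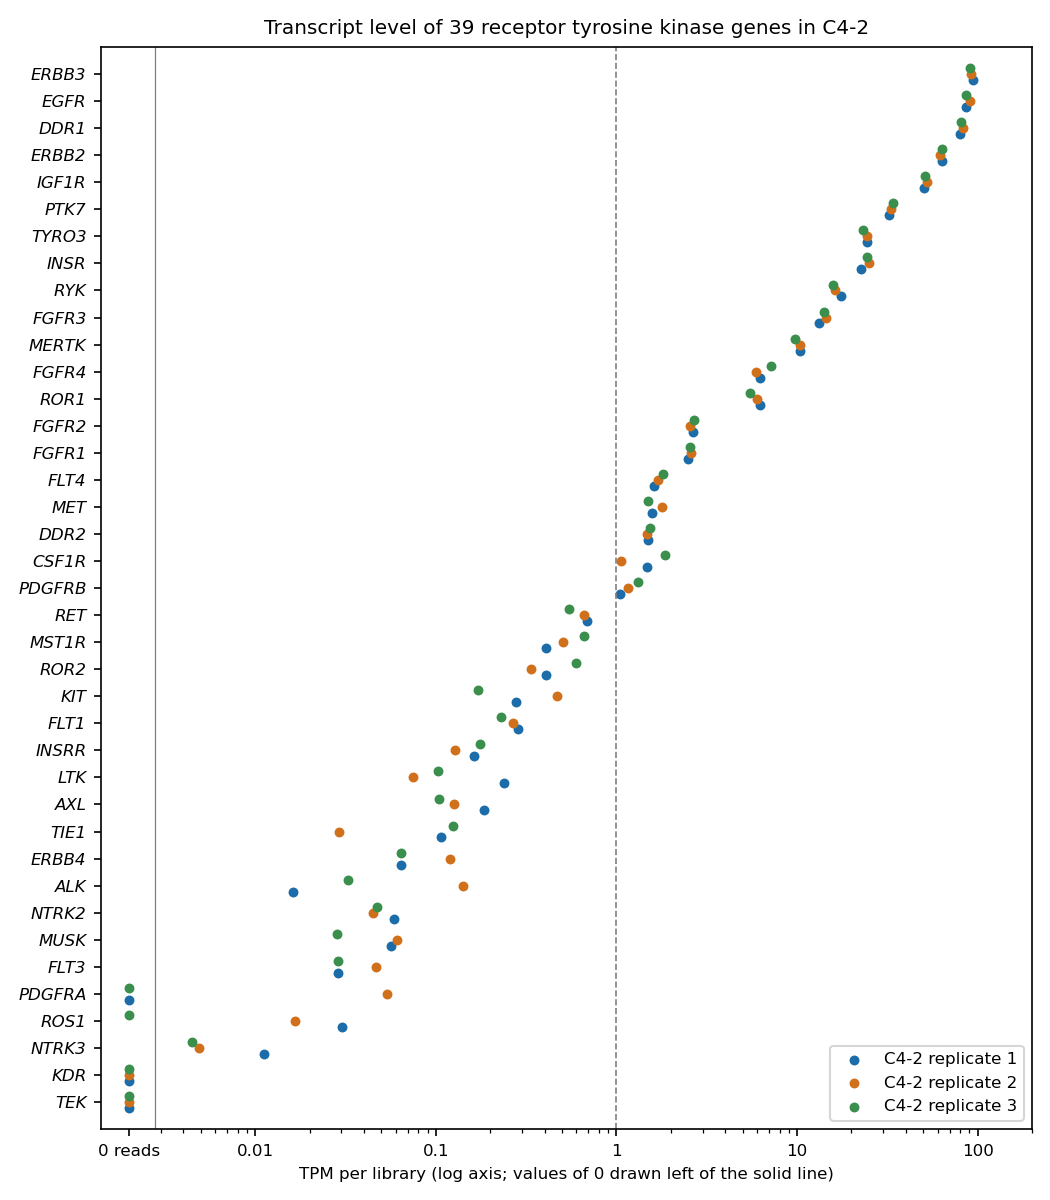
TPM of each of the 39 receptor genes (rows, ordered by mean) in each of the 3 C4-2 libraries (points) on a log axis, with 0 reads drawn left of the solid line and 1 TPM marked by the dashed line. ERBB3 and EGFR lie at the top with means of 92.3 and 88.0 TPM, 20 genes have a mean right of the dashed line, and KDR and TEK have no reads in any library.

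**Figure D2:**
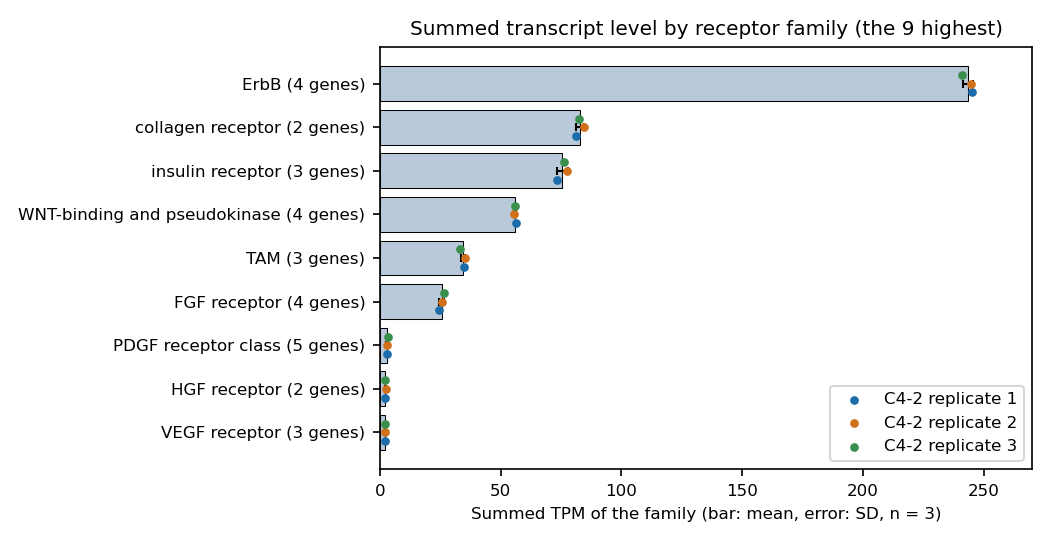
Summed TPM of the members of each receptor family for the 9 highest families (bars: mean; error bars: SD, n = 3; points: libraries). The ErbB family sums to 244 TPM and the collagen receptors, next in order, to 82.8 TPM.

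Promoters of 5 receptor genes with different levels are shown to let their sequence be read beside their expression. Each run is the 250 bases before the start site in RefSeq (GRCh38.p14, the build of the count files being GRCh38), 5′ to 3′ on the strand of the gene, with CpG pairs in capitals. EGFR (chr7:55018767-55019016, plus strand) and FGFR3 (chr4:1793043-1793292, plus) are CpG-rich promoters of expressed receptors. CSF1R (chr5:150113366-150113615, minus) has few CpG pairs in this window and a low level that differed most between libraries among members at 1 TPM or more. RefSeq gives 2 starts each for EGFR and CSF1R, and only the one nearest the 5′ end of the gene is shown. KDR (chr4:55125596-55125845, minus) and TIE1 (chr1:43300732-43300981, plus) belong to receptors with 0 or almost 0 reads.
EGFR: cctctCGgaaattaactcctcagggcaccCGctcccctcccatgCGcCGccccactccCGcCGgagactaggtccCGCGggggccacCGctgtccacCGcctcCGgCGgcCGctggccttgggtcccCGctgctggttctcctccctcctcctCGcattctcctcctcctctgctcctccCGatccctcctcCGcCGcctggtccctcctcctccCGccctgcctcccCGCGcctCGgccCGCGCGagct
FGFR3: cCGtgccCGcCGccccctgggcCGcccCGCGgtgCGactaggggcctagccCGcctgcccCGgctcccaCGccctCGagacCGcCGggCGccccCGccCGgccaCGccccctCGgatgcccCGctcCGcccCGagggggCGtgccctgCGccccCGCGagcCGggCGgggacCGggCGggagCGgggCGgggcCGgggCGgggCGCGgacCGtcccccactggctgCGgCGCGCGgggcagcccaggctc
CSF1R: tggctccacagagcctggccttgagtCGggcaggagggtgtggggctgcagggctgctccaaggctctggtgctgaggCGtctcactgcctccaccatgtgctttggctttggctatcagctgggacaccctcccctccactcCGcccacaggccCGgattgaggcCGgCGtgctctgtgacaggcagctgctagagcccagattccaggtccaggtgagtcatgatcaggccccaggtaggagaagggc
KDR: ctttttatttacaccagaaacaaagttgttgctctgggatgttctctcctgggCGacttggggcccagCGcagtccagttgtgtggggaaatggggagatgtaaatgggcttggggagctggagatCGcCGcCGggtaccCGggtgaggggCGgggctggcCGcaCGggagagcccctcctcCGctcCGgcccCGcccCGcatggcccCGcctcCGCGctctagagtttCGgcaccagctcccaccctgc
TIE1: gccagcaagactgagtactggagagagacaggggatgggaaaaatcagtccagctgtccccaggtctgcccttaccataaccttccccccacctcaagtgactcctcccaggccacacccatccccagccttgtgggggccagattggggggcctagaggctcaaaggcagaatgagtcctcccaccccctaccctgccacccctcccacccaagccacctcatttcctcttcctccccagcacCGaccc
The EGFR window holds 25 CpG pairs at a level of 88.0 TPM and the FGFR3 window 40 at 13.9 TPM. The CSF1R window holds 6 at 1.46 TPM, the KDR window 17 at 0 reads, and the TIE1 window 1 at 0.087 TPM. CpG pairs therefore did not order these 5 genes by level.

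Members at higher levels had more CpG pairs in these windows, as did all protein-coding genes. Promoters could be matched for 35 of 39 members, and ERBB3, FLT4, FGFR1 and INSRR were not matched. Where RefSeq gives several starts, the one nearest the 5′ end of the gene in the count files was used, which for DDR1, with 8 starts, lay 4549 bases inside the gene. Other starts were also displaced, such as those of TYRO3 (1537 bases inside), NTRK2 (755 inside) and DDR2 (−510, before the gene). The 17 matched members at 1 TPM or more had a median of 24 CpG pairs, against 21 over 10069 protein-coding genes at that level. The 18 below 1 TPM had a median of 15.5, against 6 over 5219 such genes. Among members below 0.1 TPM, 3 of 11 (27.3%) had 20 or more CpG pairs, namely FLT3 with 26, ALK with 24 and NTRK3 with 23, and 13.0% of 3087 protein-coding genes below 0.1 TPM did. In the other direction, DDR1 had 6 pairs at 81.3 TPM and DDR2 had 0 pairs at 1.502 TPM.

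The hexamer GGGCGG, known as the GC box, was found on either strand in 24 of 35 member windows (68.6%) and in 57.0% of 15288 protein-coding windows. TATAAA was found in 2 member windows (5.71%), those of DDR2 and FLT1, and in 9.33% of all windows. AGAACA, a half-site of androgen receptor binding, was found in 4 member windows (11.4%), those of TYRO3, ERBB4, NTRK2 and KDR, and in 9.14% of all windows. GGGCGG itself contains a CpG pair, and a match describes the letters only.

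**Figure D3:**
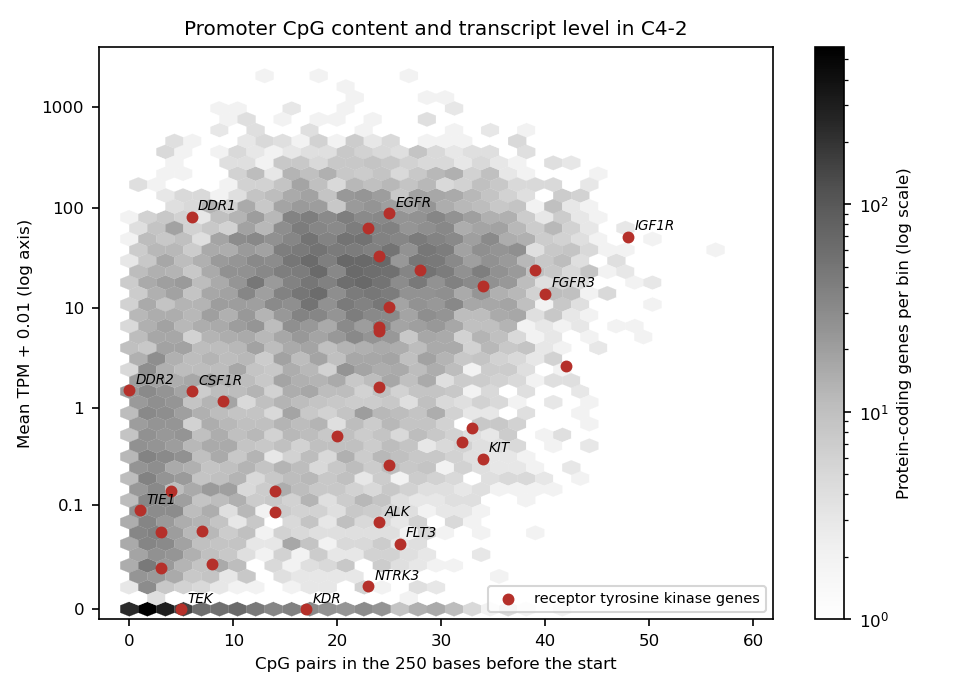
CpG pairs in the 250 bases before the start (x axis) against mean TPM + 0.01 on a log axis (y axis) for 35 receptor genes (red) over 15288 protein-coding genes (grey bins, log colour scale). FLT3, ALK and NTRK3 sit low at 23 to 26 CpG pairs, whereas DDR1 sits high at 6. The start used for DDR1 lies 4549 bases inside the gene.

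Among the ErbB receptors, 3 of 4 genes were among the most abundant receptors and ERBB4 was barely read. ERBB3 encodes a receptor with an impaired kinase that signals through its partners, and it was the highest of the 39 genes, at 94.5, 91.5 and 91.1 TPM in replicates 1 to 3 (13735, 12200 and 13165 reads). EGFR, the receptor of epidermal growth factor, followed at 86.7, 91.0 and 86.2 TPM. The ranges of these genes nearly touched without overlapping, with the lowest ERBB3 value at 91.1 and the highest EGFR value at 91.0 TPM. ERBB2, the partner without a known ligand, lay at 63.8, 62.0 and 63.8 TPM, below both in every library. ERBB4, a receptor of neuregulins, had 14, 24 and 14 reads, or 0.0827 ± 0.0320 TPM. On GRCh38 the count files place ERBB3 on chromosome 12 (56079857 to 56103505, plus strand), EGFR on chromosome 7 (55019021 to 55211628, plus) and ERBB2 on chromosome 17 (39687914 to 39730426, plus). In ERBB2, 7.41% of the exon length overlaps another gene, and the counting drops reads there. In EGFR the overlap is 1.49%.

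Within libraries, ERBB3 exceeded EGFR by 0.07 ± 0.06 log2 units (SD, n = 3), which is close to the spread between libraries, though the sign was the same in 3 of 3. ERBB2 differed from EGFR by −0.48 ± 0.07 and from ERBB3 by −0.55 ± 0.03 log2 units, in 3 of 3 libraries each. For these and the 7 receptor pairs below, the exact two-sided sign-flip test gave p = 0.25 and an adjusted p of 0.25 over the 10 pairs. That is the smallest p that 3 libraries allow, so no pair could pass 0.05. Over exon bases not shared with another gene, ERBB3 exceeded EGFR by 0.05 ± 0.06 log2 units (exact p = 0.5), so their order was not settled.

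The insulin receptor family was led by IGF1R, the receptor of insulin-like growth factors, at 50.4, 52.2 and 51.4 TPM. INSR, the insulin receptor, lay at 22.7, 25.01 and 24.4 TPM, so the groups of values did not overlap. The difference was 1.09 ± 0.05 log2 units, or 2.13-fold, in 3 of 3 libraries. INSRR, an alkali-sensing relative, had 14, 10 and 15 reads (0.156 ± 0.0253 TPM), just at the detection limit. IGF1R lies on chromosome 15 (98648971 to 98964530, plus) and INSR on chromosome 19 (7112255 to 7294034, minus).

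The collagen receptors were far apart in level. DDR1, the epithelial collagen receptor, was the third highest of all members, at 79.6, 83.2 and 81.0 TPM. DDR2, known mainly from mesenchymal cells, lay at 1.49, 1.48 and 1.53 TPM. DDR1 exceeded DDR2 by 5.67 ± 0.04 log2 units, or 50.8-fold, in 3 of 3 libraries. DDR1 lies on chromosome 6 (30876421 to 30900156, plus).

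Receptors that bind WNT proteins or lack kinase activity included a further pair of abundant genes. PTK7, a pseudokinase of planar cell polarity, lay at 32.4, 33.0 and 33.9 TPM, and RYK, a WNT receptor with an inactive kinase, at 17.4, 16.1 and 15.9 TPM. PTK7 exceeded RYK by 1.00 ± 0.10 log2 units in 3 of 3 libraries. ROR1, a WNT5A receptor of embryonic tissue, lay at 6.21, 6.03 and 5.46 TPM. Its relative ROR2 had 40, 30 and 58 reads (0.447 ± 0.135 TPM) and differed from ROR1 by −3.48 ± 0.43 log2 units, in 3 of 3 libraries. With a pseudocount of 1 that difference was −2.26.

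The TAM receptors bind GAS6 and protein S and take part in clearing dying cells. TYRO3 lay at 24.4, 24.5 and 23.3 TPM and MERTK at 10.3, 10.3 and 9.79 TPM. AXL, often described in mesenchymal and therapy-resistant tumour cells, had 16, 10 and 9 reads (0.138 ± 0.0416 TPM) and missed detection by 1 read in replicate 3. TYRO3 exceeded AXL by 6.68 ± 0.22 log2 units in 3 of 3 libraries. The size of this difference depended on the pseudocount, at 4.46 with a pseudocount of 1 and 7.38 with 0.01. TYRO3 and INSR were neighbours in the order of levels whose ranges overlapped.

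All 4 FGF receptors were detected at 1 TPM or more. FGFR3 was the highest at 13.2, 14.5 and 14.02 TPM. FGFR4, the receptor of the endocrine factor FGF19, lay at 6.20, 5.92 and 7.19 TPM, with replicate 3 above the other two. FGFR2, whose splice forms separate epithelium from mesenchyme, lay at 2.66, 2.54 and 2.68 TPM and FGFR1 at 2.48, 2.58 and 2.55 TPM, with overlapping ranges. Gene counts carry no information on splice forms. FGFR4 exceeded FGFR1 by 1.31 ± 0.15 log2 units, or 2.47-fold, in 3 of 3 libraries. FGFR4 and ROR1 also overlapped in range.

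MET, the receptor of hepatocyte growth factor, was low at 1.57, 1.79 and 1.497 TPM (186, 194 and 176 reads). MST1R, the receptor of macrophage-stimulating protein, had 36, 41 and 58 reads (0.526 ± 0.128 TPM). Their difference, MST1R minus MET, was −1.48 ± 0.35 log2 units in 3 of 3 libraries. It shrank to −0.78 with a pseudocount of 1, and 6.78% of the exon bases of MST1R are shared with another gene.

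Receptors known from stroma, vessels and blood were low, and most were near 0. CSF1R, the receptor of colony stimulating factor 1 on macrophages, had 128, 84 and 159 reads, or 1.48, 1.06 and 1.85 TPM. PDGFRB, a pericyte and fibroblast receptor, had 125, 128 and 156 reads, or 1.04, 1.16 and 1.31 TPM. KIT, the stem cell factor receptor, had 26, 40 and 16 reads (0.306 ± 0.149 TPM). FLT3 of blood progenitors had 2 or 3 reads in each library, and PDGFRA had 0, 8 and 0 reads. Of the exon bases of PDGFRA, 15.8% are shared with another gene. CSF1R was highest and the summed leukocyte and macrophage markers were at their maximum in the same library, replicate 3 (1.58 TPM). The marker sum was nearly as high in replicate 2 (1.56 TPM), where CSF1R was lowest. That sum was lowest in replicate 1 (0.795 TPM), where CSF1R was not lowest. CD68 made 0.831 TPM of the sum in replicate 2, and 85.8% of its exon bases are shared with another gene. CD14, the only marker of this list that was detected, lay at 0.442, 0.448 and 0.826 TPM in replicates 1 to 3. These values rest on 14, 13 and 26 reads and were highest in replicate 3, as CSF1R was. The part of these markers in the CSF1R values was not tested.

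Of the VEGF receptors, FLT4, the lymphatic one, was the only one at 1 TPM or more, at 1.62, 1.71 and 1.81 TPM (241, 233 and 268 reads). FLT1 had 60, 52 and 48 reads (0.261 ± 0.0287 TPM). KDR, the main VEGFA receptor of endothelium, had 0 reads. The upper limit for a count of 0 is taken as 6 reads when both mates of a fragment are counted, which allows KDR up to 0.0622 TPM and the angiopoietin receptor gene TEK up to 0.0811 TPM in any library. Such a limit reflects counting error alone. TIE1 had 12, 3 and 14 reads. Of the endothelial markers, PECAM1 and CDH5 were likewise not detected, whereas VWF, CLDN5, ESAM and EMCN were.

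The receptors known from neurons and neural crest were at the low end. RET, the receptor of the GDNF family, was the highest of them with 80, 70 and 63 reads (0.631 ± 0.0754 TPM), the member just under 1 TPM. NTRK2, the receptor of brain-derived neurotrophic factor, had 20, 14 and 16 reads, and NTRK3 5, 2 and 2 reads. ALK had 2, 16 and 4 reads and its relative LTK 14, 4 and 6 reads. ROS1 had 4, 2 and 0 reads and MUSK, the muscle receptor that agrin activates, 4, 4 and 2 reads. ALK, LTK, NTRK3, ROS1 and MUSK did not reach 10 reads in every library, whereas NTRK2 and RET did.

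Among members at 1 TPM or more, 12 of 19 neighbouring pairs in the order of levels had ranges that did not overlap. The 7 overlapping pairs were TYRO3 with INSR, FGFR4 with ROR1, FGFR2 with FGFR1 and the 4 steps from FLT4 through MET, DDR2 and CSF1R to PDGFRB. Among these 5 receptors, at 1.17 to 1.71 TPM, neighbours could not be put in order, though receptors further apart could, such as FLT4 (lowest value 1.62 TPM) above PDGFRB (highest value 1.31 TPM).

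Ligand genes were compared with receptor genes by textbook pairings, which covered 33 members and left out ERBB2, INSRR, PTK7, DDR1, DDR2 and TIE1. Of the 16 covered receptors at 1 TPM or more, 8 had at least 1 listed ligand at 1 TPM or more, and 8 had none. Of the 17 covered receptors below 1 TPM, 11 had such a ligand. Of 57 ligand genes, 30 were detected and 20 reached 1 TPM, beside 71.8% and 62.7% of protein-coding genes. The median of the 57 was 0.394 TPM, against 5.43 TPM over all protein-coding genes.

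EGFR was read together with EGF at 7.24 ± 0.387 TPM, HBEGF at 3.30 ± 0.939 and TGFA at 1.24 ± 0.228, while AREG and EPGN had 0 reads. The EGFR ligands BTC and EREG lay at 0.225 and 0.00349 TPM. ERBB3 stood without its ligands: NRG1 lay at 0.00351 TPM and NRG2 at 0.121 TPM, neither of them detected. For IGF1R, IGF1 lay at 10.7 ± 0.553 TPM, but 82.8% of its exon length overlaps another gene, which leaves its level uncertain. GAS6, at 6.81 ± 0.762 TPM, and PROS1, at 1.15 ± 0.152 TPM, accompanied TYRO3 and MERTK. WNT5A, a ligand of ROR1 and RYK, lay at 4.91 ± 0.606 TPM. MET was read without HGF, at 0.00898 TPM, and the 4 FGF receptors without any listed FGF gene at 1 TPM, the highest being FGF18 at 0.590 ± 0.198 TPM, followed by FGF21 at 0.557 TPM, with FGF10 at 0 reads. FGF2 lay at 0.298, FGF8 at 0.263, FGF23 at 0.168, FGF7 at 0.0680, FGF19 at 0.0177, FGF9 at 0.0175 and FGF1 at 0.0164 TPM. For other expressed receptors, IGF2 lay at 0.463, IL34 at 0.278, VEGFC at 0.217 and PDGFD at 0.0881 TPM, and INS had 0 reads.

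Several of the most abundant ligand genes belonged to receptors that were low or at 0. GDF15, at 323 ± 4.85 TPM, acts on RET through the co-receptor GFRAL, and GFRAL had 0 reads. AGRN, listed as the ligand of MUSK, lay at 102 ± 1.61 TPM, and the listed co-receptor gene LRP4 at 0.963 ± 0.0469 TPM. VEGFB lay at 41.9 ± 3.22 and VEGFA at 39.4 ± 0.799 TPM, and the listed co-receptor gene NRP1 at 13.1 ± 0.563 TPM. PDGFB, at 24.2 ± 1.68 TPM, exceeded its receptor gene PDGFRB at 1.17 TPM in level. KITLG, at 2.84 ± 0.403 TPM, and MST1, at 6.81 ± 0.547 TPM, likewise stood above KIT and MST1R, and ANGPT2 lay at 1.78 ± 0.212 TPM beside TEK at 0 reads. CSF1, at 1.75 ± 0.177 TPM, lay near CSF1R.

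**Figure D4:**
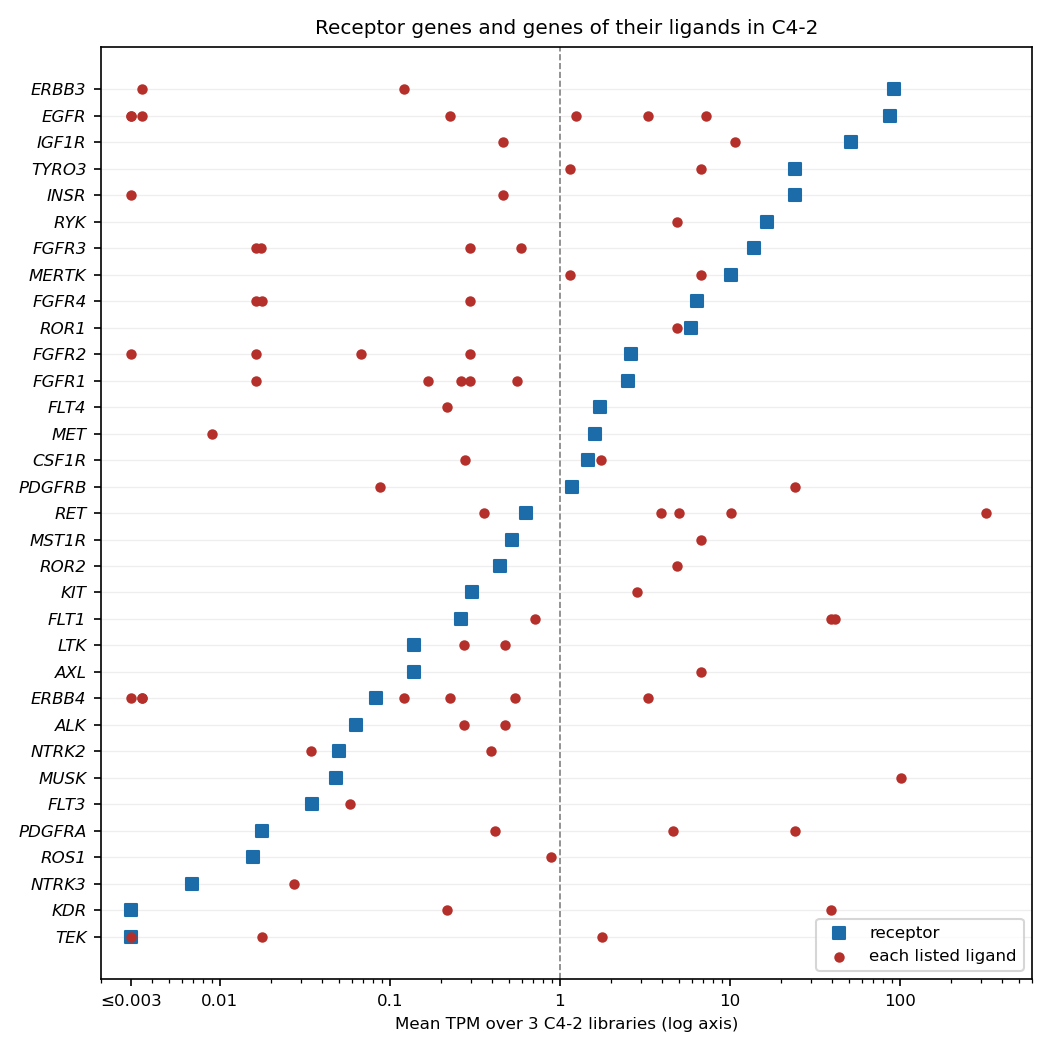
Mean TPM over 3 libraries of 33 receptor genes (blue squares, ordered by level) and of each of their listed ligand genes (red circles) on a log axis, with values of 0.003 or below drawn at the left edge and 1 TPM dashed. ERBB3 at the top has both ligands below 1 TPM, whereas MUSK and KDR near the bottom have a ligand far to the right, at 102 and 39.4 TPM.

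Of 17 co-receptor genes, 12 were detected and 7 reached 1 TPM, beside 71.8% and 62.7% of protein-coding genes. The decoy receptor gene FGFRL1, which binds FGFs and has no kinase, was the highest at 228 ± 8.09 TPM, above the summed level of the 4 FGF receptor genes (25.5 ± 0.964 TPM). The heparan sulfate carriers SDC1, SDC4 and GPC1 lay at 90.5 ± 2.02, 56.1 ± 5.14 and 24.4 ± 0.190 TPM. KLB, which pairs with FGFR4 for FGF19, lay at 2.33 ± 0.244 TPM, and the GDNF co-receptors GFRA1 to GFRA4 were at 0.0221 to 0.188 TPM.

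Shared signalling parts were more evenly present than receptors or ligands. Of 36 adaptor and proximal signalling genes, 35 were detected and 33 reached 1 TPM, beside 71.8% and 62.7% of protein-coding genes. The median of the 36 was 32.8 TPM, against 5.43 TPM over all protein-coding genes. The gene not detected, PIK3R2, had 7, 10 and 15 reads. Of its exon length 87.2% overlaps another gene, which makes its level uncertain. HRAS lay at 129.5 ± 1.35 TPM, the MAP kinase kinase gene MAP2K2 at 118 ± 2.57, the phosphatase gene PTPN11 at 114 ± 6.61 and AKT1 at 106 ± 1.10 TPM. The adaptor genes GRB2 and SHC1 lay at 95.5 ± 2.30 and 74.8 ± 3.59 TPM. The insulin receptor substrates IRS1 and IRS2 lay at 16.6 ± 0.383 and 6.18 ± 0.378 TPM.

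Of 31 feedback inhibitors and genes of receptor turnover, 30 were detected and 30 reached 1 TPM, beside 71.8% and 62.7% of protein-coding genes. The median of the 31 was 21.8 TPM. The receptor phosphatase gene PTPRF was the highest at 241 ± 5.29 TPM, followed by the adaptor gene GRB10 at 80.8 ± 2.41, the phosphatase gene PTPN1 at 52.5 ± 2.17 and RNF41, a ubiquitin ligase of ERBB3, at 45.3 ± 2.39 TPM. LRIG1 and ERRFI1, which restrain ErbB receptors, lay at 39.04 ± 1.55 and 28.2 ± 2.79 TPM. DUSP6, a phosphatase of ERK, was the exception at 0.166 ± 0.0878 TPM and was not detected. Of the exon length of DUSP6, 40.5% overlaps another gene, which makes its level uncertain.

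Genes known to rise with ERK activity were uneven. Of 17, 16 were detected and 13 reached 1 TPM, beside 71.8% and 62.7% of protein-coding genes. The median of the 17 was 2.20 TPM, below the 5.43 TPM over all protein-coding genes. MYC lay at 292 ± 5.01 TPM, CCND1 at 260.2 ± 7.90, PHLDA2 at 239 ± 7.66 and DUSP4 at 32.7 ± 0.657 TPM. In contrast, ETV4 lay at 1.07 ± 0.288 TPM, ETV5 at 0.141 ± 0.0217, EGR1 at 1.16 ± 0.186 and FOS at 0.644 ± 0.190 TPM.

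The spread between libraries was small for the abundant receptors. Over the 11 members at 10 TPM or more the coefficient of variation of TPM was 1.62% to 5.01%, with a median of 2.83%, where the median over protein-coding genes at that level was 4.45%. These sets were matched by TPM and not by reads. The median exon length was 7362 bases over all members and 4198.5 over protein-coding genes, and at equal TPM a longer gene holds more reads. The part of length in the smaller spread was not tested. A chi-square test of the 3 counts against TMM library sizes, with p-values adjusted (Benjamini-Hochberg) over the 21039 genes detected, called 11 of the 28 detected members as varying beyond counting noise. It called 46.1% of all detected genes.

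Low counts in these files tended to be even, which bears on that test. Of 25683 counts between 1 and 10 over all genes and libraries, 81.7% were even, and of 36 member counts between 1 and 30, 31 were even. Counting both mates of a fragment, as the recorded options would do for paired reads, makes counts come in pairs, and the chi-square statistic is then too large. With the statistic divided by 2, 4 of 28 members were called, ERBB2, ERBB3, INSR and CSF1R, as were 17.6% of detected genes. Among genes with a mean of 1000 or more reads, 3 of 10 members and 33.2% of genes were called.

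CSF1R had the widest spread of these 4, with 2.50, 1.75 and 3.21 CPM (counts scaled by TMM library size), highest in replicate 3 and lowest in replicate 2. Its chi-square adjusted p was 0.035 with the divided statistic and ranged from 5.1e-05 to 0.43 over 12 alternatives, divided and undivided together. ERBB2 lay at 216, 205 and 222 CPM (adjusted p = 0.0034, range 3.7e-07 to 0.47), lowest in replicate 2. ERBB3 lay at 269, 254 and 266 CPM, also lowest in replicate 2 (adjusted p = 0.025, range 8.8e-05 to 0.81). INSR lay at 78.0, 83.8 and 86.1 CPM, lowest in replicate 1 (adjusted p = 0.031, range 0.00013 to 0.65). The low end of each of these 4 ranges came from the undivided chi-square test. For the divided chi-square test the lowest adjusted p was 0.013 for CSF1R, 0.0013 for ERBB2, 0.025 for ERBB3 and 0.031 for INSR. With the divided statistic, CSF1R was no longer called without replicate 2 or without replicate 3, and ERBB2 likewise. INSR was no longer called without replicate 1 or 3, and ERBB3 without replicate 1 or 2. With total reads in place of TMM, ERBB2 and ERBB3 were not called (adjusted p = 0.054 and 0.15). EGFR, at 356, 365 and 364 CPM, was not called by the undivided chi-square test (adjusted p = 0.08), but was called by it with total reads (adjusted p = 0.0068, range 0.0068 to 0.90 over 12 alternatives).

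**Figure D5:**
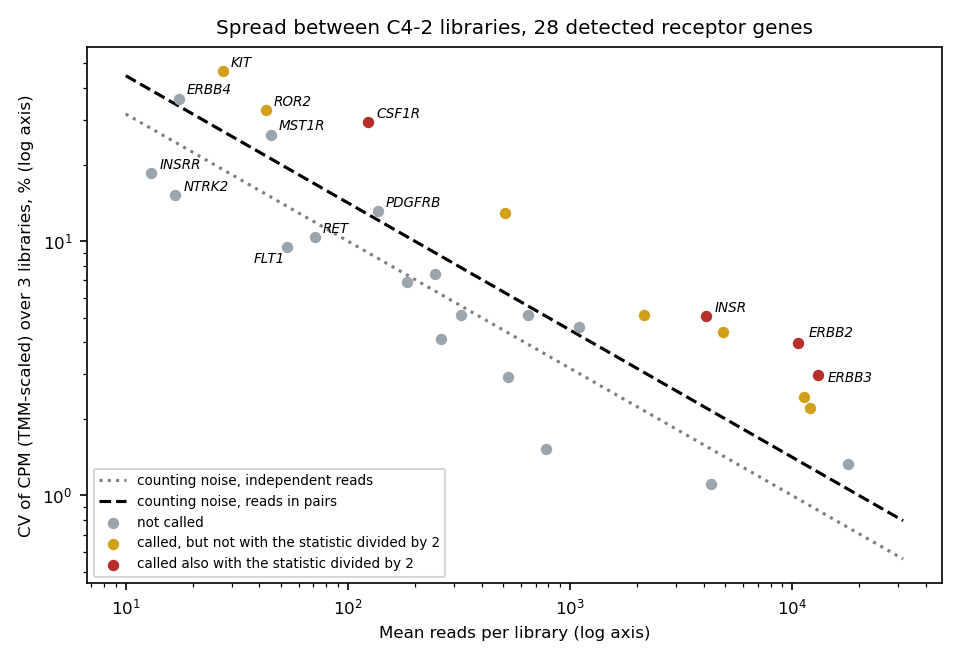
Coefficient of variation of TMM-scaled CPM over the 3 libraries (y, log axis, %) against mean reads (x, log axis) for the 28 detected members, with lines for the counting noise of independent reads (dotted) and of reads counted in pairs (dashed). CSF1R, INSR, ERBB3 and ERBB2 (red) lie above the dashed line, and EGFR, the gene with the most reads, lies close to it.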

How the data were processed

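Total RNA of C4-2 cells was depleted of ribosomal RNA from an input of 770 ng and made into directional libraries, per the labels' protocols. The submitters' processing notes name STAR 2.7.0f, Subread 1.6.3 and DESeq2 1.26.0. The deposited values are unnormalised read counts, made with featureCounts 1.6.3 over Ensembl release 90 exons on GRCh38, per the file headers, with options that ignore strand, drop reads shared between genes and count each mate by itself. Reads of a gene and of an overlapping or antisense gene are therefore lost, and TPM of such genes is too low.

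Here 57532 of 58302 identifiers were matched to GENCODE release 44. TPM was computed from the counts and the exon lengths in the files, and log2 values used a pseudocount of 0.1. TMM library sizes came from edgeR 4.0.16 and size factors from DESeq2 1.42.0. With 1 group no contrast could be fitted. A chi-square test of each detected gene, itself tested on simulated data, measured variation between libraries. Members at 1 TPM or more are given per library and others by reads. From the context lists the 4 highest genes and the ligands of expressed receptors are named, and further list genes were named after their values were seen. One gene that this rule names is not reported here. The members and lists were chosen with earlier results of these data known. Depth per library was 51200272, 47513470 and 49965601 reads in replicates 1, 2 and 3.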

Additional observations from a re-analysis of the deposited data

How the results depend on the processing

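Of 106 recomputed values, 13 moved beyond the limits set. The 70 pair differences are judged by direction alone, and their size fell with a pseudocount of 1, most in absolute terms for TYRO3 minus AXL, from 6.68 to 4.46. With RPKM in place of TPM, 13 members reached 1, against 20. The number of members called as varying was 11, beside 46.1% of all detected genes. It was 4 with the statistic divided by 2, which was planned, beside 17.6% of detected genes. Chosen after seeing the data, the divided statistic gave 4 with DESeq2 size factors and 2 with total reads, and 1 to 3 when 1 replicate was left out. The undivided test gave 5 to 8 without 1 replicate. No share of all detected genes is given for these recounts, so they cannot be read against all genes. The median level of members was 0.30 log2 units and moved to 1.09 with a pseudocount of 1, to 0.86 with TPM over protein-coding nuclear genes only, and to 1.42 over detected members only. The summed TPM of members moved from 526 to 799 with TPM over protein-coding nuclear genes only. All 10 receptor pair differences kept their sign in 70 of 70 alternatives. No paired analysis was possible because the libraries form 1 group, so no replicate numbers are shared between conditions. At this depth, members from INSRR down had fewer than 30 reads in every library, and their order was not compared.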

Other observations

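Some receptor genes lie near each other in the genome, and their levels could be set side by side. On chromosome 15, TYRO3 (41557675 to 41583586, plus strand) lay at 24.1 TPM and LTK (41503638 to 41513887, minus strand), 43.8 kb away, at 0.139 TPM. On chromosome 5, CSF1R (150053291 to 150113372) and PDGFRB (150113837 to 150155872) are both on the minus strand and 464 bases apart, and they lay at 1.46 and 1.17 TPM. On chromosome 4, PDGFRA, KIT and KDR follow each other at gaps of 359.7 and 337.8 kb, and all 3 were below 1 TPM, at 0.0178, 0.306 and 0 TPM. On chromosome 13, FLT3 and FLT1, 199.8 kb apart, lay at 0.0348 and 0.261 TPM.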
